A study of Mus musculus with 281 samples.

Results

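The 10 genes described here encode the core of antigen presentation by the major histocompatibility complex (MHC). They were taken by name from the 43280 gene symbols of the deposited table, and all 10 were found. Of them, 6 belong to class I (B2m, H2-K1, H2-D1, H2-T23, Tap1 and Tapbp) and 4 to class II (Cd74, H2-Aa, H2-Ab1 and H2-Eb1). The study asked how heterogeneous granulocyte-monocyte progenitors (GMPs) are, and profiled single bone marrow cells of C57BL/6 mice, an inbred strain, with SMART-seq2, which makes cDNA from whole transcripts of 1 cell. Levels are in TPM, the share of 1 gene in the transcripts of 1 cell after division by transcript length, on a fixed total per cell.

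Class I molecules display peptides made inside the cell to CD8 T cells. A heavy chain, encoded in these mice mainly by H2-K1 and H2-D1, pairs with beta-2 microglobulin, the product of B2m. The transporter subunit Tap1 helps to carry peptides into the endoplasmic reticulum, and tapasin, the product of Tapbp, holds the empty molecule at that transporter. H2-T23 encodes Qa-1, a nonclassical class I chain read by NK cell receptors. Class II molecules display peptides from the endocytic route to CD4 T cells and are known mainly from dendritic cells, B cells and macrophages. H2-Aa and H2-Ab1 encode the paired chains of I-A. H2-Eb1 encodes the beta chain of I-E, whose alpha chain gene H2-Ea is defective in C57BL/6 mice. Cd74 encodes the invariant chain, which fills and guides new class II molecules.

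The cells carried 6 cell type labels. The 31 tpMo cells were lineage-negative, CD115-positive, c-Kit-negative, CXCR4-positive and Ly6C-positive. The 31 preNeu cells were lineage-negative, positive for Gr1, CD11b, c-Kit and CXCR4, and negative for CD115 and SiglecF. Of the 22 proneu cells, 21 had the same gate as Ly6C+GMP cells and 1 had none given. Whether the proneu label was assigned from these transcriptomes is not stated. The Ly6C+GMP cells, 95 in a first and 10 in a second run of titles, and the 45 Ly6C-GMP cells lacked lineage markers and Sca-1, carried c-Kit and CD34, were high in CD16/32 and were split by Ly6C. The 47 CMP cells differed from them in the gate by low CD16/32. No animal or culture was named, so each label counts as 1 sample, no test was made, and every SD is a spread between cells. Sample titles fell into runs, called H, A, B and C here, whose meaning the labels do not give. The 95 Ly6C+GMP cells of the first run made up run A. Run B held 1 proneu, 30 Ly6C-GMP and 31 CMP cells, run C 31 tpMo, 31 preNeu, 21 proneu and 10 Ly6C+GMP cells, and run H 15 Ly6C-GMP and 16 CMP cells.

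Read depth is unknown, and genes at 1 TPM or more, counted as detected, stand in for it. Their median per cell was 3082 in tpMo, 2373 in preNeu, 4204 in proneu, 4829 in Ly6C+GMP, 4514 in Ly6C-GMP and 3489 in CMP cells. The 20 most abundant genes took 47.1% of the TPM of the median preNeu cell. In the other labels that share was 14.2 to 22.4%. The labels were checked by the summed TPM of marker lists. The median for 7 monocyte genes was 4572 TPM in tpMo cells and at most 1053 TPM in the other labels. The median for 7 neutrophil genes was highest in preNeu cells, at 216570 TPM, and lowest in tpMo cells, at 721 TPM.

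All class II members but Cd74 and all class I members but B2m lie in the MHC region of chromosome 17. In GRCm38, with GENCODE M21 gene bounds, H2-K1 spans 33996017 to 34000347 on the minus strand and H2-D1 spans 35262730 to 35267499 on the plus strand. H2-T23 spans 36029773 to 36032855 (minus), Tap1 34187553 to 34197225 (plus) and Tapbp 33915899 to 33929292 (plus). H2-Aa spans 34282744 to 34287823 (minus), H2-Ab1 34257689 to 34269419 (plus) and H2-Eb1 34305867 to 34316674 (plus). B2m lies on chromosome 2 from 122147686 to 122153083 (plus). All 10 are annotated as protein-coding. In the annotated transcripts, 14.8% of the 100-base windows of Tapbp also occur in other genes, nearly all in Gm19412. This share was 3.59% for H2-D1, 3.15% for H2-T23, 1.93% for Tap1 in windows shared with Psmb9, and 0.957% for H2-K1. It was 0 for B2m, Cd74, H2-Aa, H2-Ab1 and H2-Eb1, and reads from shared windows cannot be assigned to 1 gene with certainty.

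The 250 bases before the RefSeq start (GRCm38.p6) are shown for 5 members at the ends of the range, 3 class I genes found in nearly every cell and 2 class II genes found in few. Tapbp and Tap1 also matched the RefSeq table, as did H2-T23, 8 members in all. The windows are chr2:122147437-122147686 (plus) for B2m, chr17:34000348-34000597 (minus) for H2-K1, chr17:35262844-35263093 (plus) for H2-D1, chr17:34287824-34288073 (minus) for H2-Aa and chr17:34305617-34305866 (plus) for H2-Eb1. Capitals mark matches, on either strand, to the CCAAT box (CCAAT), an interferon regulatory factor (IRF) element core (AANNGAAA), 2 forms of the NF-kappaB core (GGG, 2 free bases, then TTTCC or TTCCC) and the X box core of class II genes (AG, 2 free bases, AC, 1 free base, then GATG). The motifs were chosen with these sequences seen.
B2m: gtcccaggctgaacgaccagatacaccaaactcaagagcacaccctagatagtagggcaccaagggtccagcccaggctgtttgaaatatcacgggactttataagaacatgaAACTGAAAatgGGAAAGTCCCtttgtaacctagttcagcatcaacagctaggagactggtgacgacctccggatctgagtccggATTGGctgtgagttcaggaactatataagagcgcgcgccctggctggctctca
H2-K1: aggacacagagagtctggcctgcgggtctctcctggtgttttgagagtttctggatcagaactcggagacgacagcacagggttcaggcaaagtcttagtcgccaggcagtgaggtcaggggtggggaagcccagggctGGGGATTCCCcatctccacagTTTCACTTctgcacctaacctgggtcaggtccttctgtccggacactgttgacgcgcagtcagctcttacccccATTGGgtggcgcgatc
H2-D1: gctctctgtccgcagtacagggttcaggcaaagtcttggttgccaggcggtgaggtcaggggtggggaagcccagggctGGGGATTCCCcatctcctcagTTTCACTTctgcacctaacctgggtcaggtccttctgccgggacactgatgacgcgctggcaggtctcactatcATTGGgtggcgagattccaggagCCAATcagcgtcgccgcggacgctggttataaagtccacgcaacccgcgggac
H2-Aa: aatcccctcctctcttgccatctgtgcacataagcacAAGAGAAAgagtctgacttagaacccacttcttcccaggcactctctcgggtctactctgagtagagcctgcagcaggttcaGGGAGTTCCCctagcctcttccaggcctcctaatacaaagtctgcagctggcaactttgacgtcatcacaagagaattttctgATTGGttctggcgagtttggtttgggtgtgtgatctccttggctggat
H2-Eb1: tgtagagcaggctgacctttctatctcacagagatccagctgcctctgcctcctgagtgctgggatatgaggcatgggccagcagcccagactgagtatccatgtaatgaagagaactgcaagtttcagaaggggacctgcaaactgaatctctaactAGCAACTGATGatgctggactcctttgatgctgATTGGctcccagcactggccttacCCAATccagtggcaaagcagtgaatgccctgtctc
Of 32851 RefSeq promoter windows of the same length, 33.8% held the CCAAT box, 21.3% the IRF core, 1.41% the TTTCC and 1.53% the TTCCC form of the NF-kappaB core, and 0.816% the X box core. All 5 windows held the CCAAT box. The B2m, H2-K1 and H2-D1 windows each held an IRF core and 1 NF-kappaB form side by side. H2-Aa held both kinds of match farther apart, and H2-Eb1 held neither. Among the class I windows not shown, H2-T23 held IRF cores but no NF-kappaB form, and Tap1 and Tapbp matched the CCAAT box alone. H2-Eb1 alone of the 5 matched the X box core, as AGCAACTGATG. The windows of H2-K1 and H2-D1 were alike in 161 of 177 aligned columns (90.96%), with the shared GGGGATTCCC 111 bases before the H2-K1 start and 171 bases before the H2-D1 start. A match is a string of letters and no evidence of binding. The lack of a match to these exact strings does not show that an element is absent.

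B2m was detected in every cell. Its lowest, median and highest levels were 907, 2361 and 4232 TPM in tpMo, 229, 1526 and 3987 TPM in preNeu, and 567, 1576 and 3920 TPM in proneu cells. They were 747, 1908 and 3425 TPM in Ly6C+GMP, 1000, 2695 and 6657 TPM among Ly6C-GMP, and 1132, 3307 and 6823 TPM among CMP cells. The ranges of all 6 labels overlapped, with the highest medians in CMP and Ly6C-GMP cells. B2m averaged 2255 ± 748 TPM in tpMo, 1759.9 ± 904 TPM in preNeu, 1842 ± 902 TPM in proneu, 1909 ± 590 TPM in Ly6C+GMP, 2898 ± 1063 TPM among Ly6C-GMP, and 3463 ± 1357 TPM among CMP cells (SD over cells).

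The classical heavy chains were nearly as widespread, except in preNeu cells. H2-K1 was detected in 30 of 31 tpMo, 25 of 31 preNeu, 21 of 22 proneu and all Ly6C+GMP, Ly6C-GMP and CMP cells. Its lowest, median and highest levels were 0, 706 and 2374 TPM in tpMo, 0, 144 and 1704 TPM in preNeu, and 0, 988 and 1940.1 TPM in proneu cells. They were 2.86, 961 and 2298 TPM among Ly6C+GMP, 270.0, 1357 and 3967 TPM among Ly6C-GMP, and 280.0, 2048 and 7369 TPM among CMP cells. The ranges overlapped, and the median was highest in CMP and lowest in preNeu cells. H2-K1 averaged 828 ± 695 TPM in tpMo, 339 ± 447 TPM in preNeu, 935 ± 468 TPM in proneu, 976 ± 429 TPM in Ly6C+GMP, 1484 ± 756 TPM among Ly6C-GMP, and 2236 ± 1366 TPM among CMP cells. H2-D1 was missed only in 2 of 31 preNeu cells. Its lowest, median and highest levels were 230, 1599 and 6154 TPM in tpMo, 0, 749 and 2336 TPM in preNeu, and 2.72, 1140 and 2847 TPM in proneu cells. They were 219, 1341 and 2860 TPM in Ly6C+GMP, 455, 1325 and 4348 TPM among Ly6C-GMP, and 170, 1842 and 5825 TPM among CMP cells. H2-D1 averaged 1893 ± 1216 TPM in tpMo, 820.3 ± 594 TPM in preNeu, 1275 ± 704 TPM in proneu, 1371 ± 509 TPM in Ly6C+GMP, 1463 ± 714 TPM among Ly6C-GMP, and 1939 ± 1139 TPM among CMP cells. Its means in tpMo and CMP cells were thus nearly equal, which those of H2-K1 were not.

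**Figure D1:**
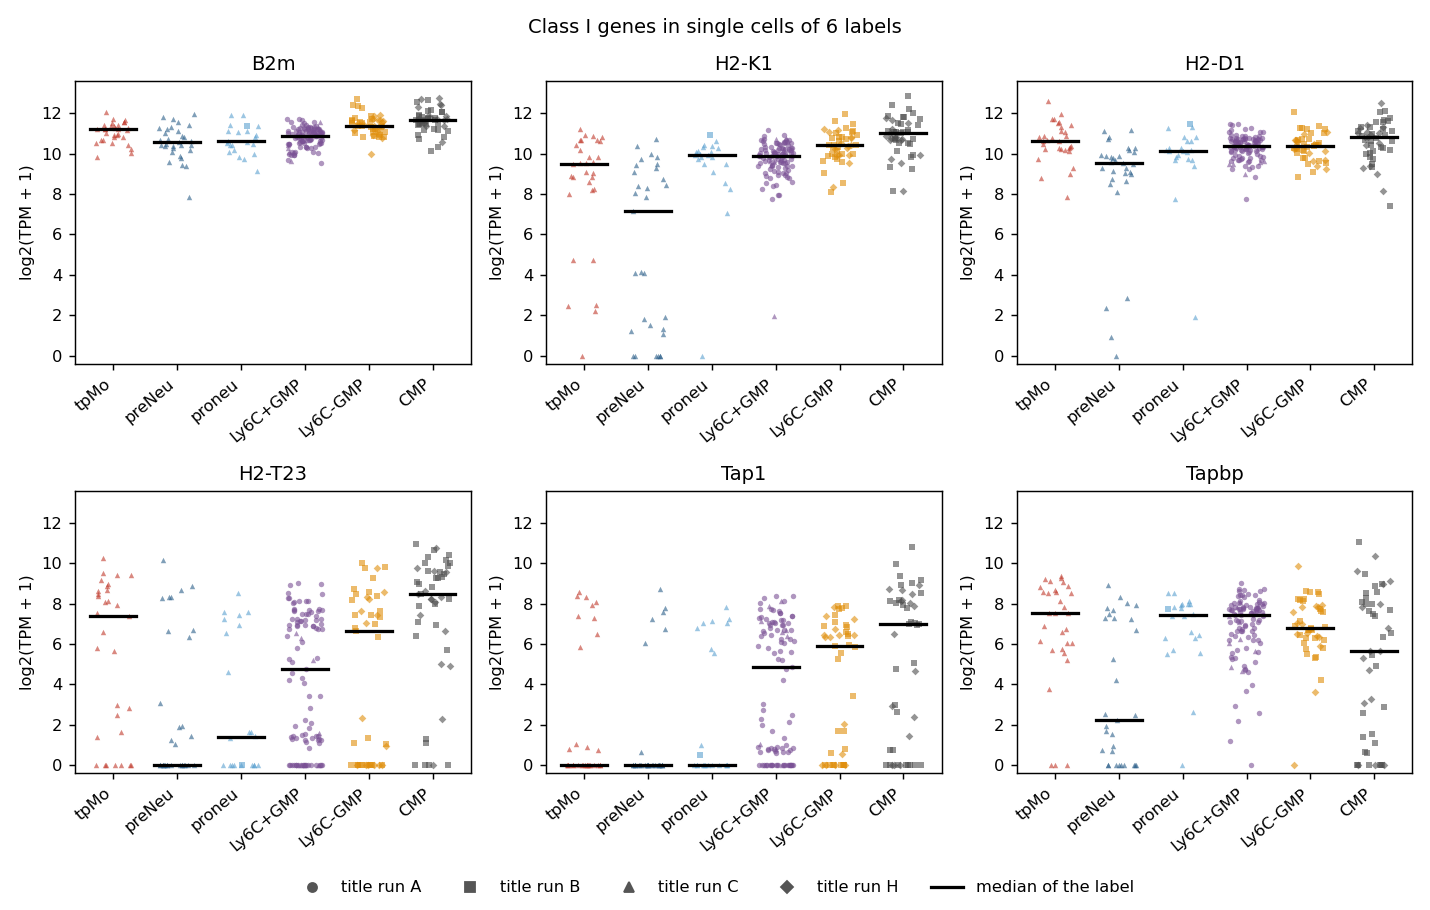
Level of each class I gene, as log2(TPM + 1), in each cell by label, with marker shape for the title run and a bar at the label's median. B2m lies above 200 TPM in every cell, H2-K1 has preNeu and tpMo cells near 0, and H2-T23, Tap1 and Tapbp split into cells near 0 and cells with a level.

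H2-K1 and H2-D1 encode chains of the same kind, and the fixed TPM total of a cell largely drops out of their ratio. Missed transcripts do not drop out. In preNeu cells H2-K1 was not detected in 6 of 31 and H2-D1 in 2 of 31. H2-K1 ran with the number of detected genes at r = -0.42 in CMP and 0.60 in proneu cells, and H2-D1 at 0.03 and 0.59. The part of depth in the ratio was not tested. The median log2 ratio of H2-K1 to H2-D1 was -1.29 in tpMo, -1.72 in preNeu, -0.58 in proneu, -0.66 in Ly6C+GMP, -0.01 in Ly6C-GMP and 0.29 in CMP cells. H2-K1 was the higher of the pair in 5 of 31 tpMo, 4 of 31 preNeu, 6 of 22 proneu, 25 Ly6C+GMP (23.8%), 22 of 45 Ly6C-GMP and 30 of 47 CMP cells. The spread was wide, and the ranges of the 6 labels overlapped. Cells with H2-K1 under 0.25 times H2-D1 made up 9 of 31 tpMo and 14 of 31 preNeu cells, but 2 of 22 proneu, 5 Ly6C+GMP, 1 of 45 Ly6C-GMP and 1 of 47 CMP cells. H2-K1 took 30.4% of the summed H2-K1 and H2-D1 TPM in tpMo, 29.2% in preNeu, 42.3% in proneu, 41.6% in Ly6C+GMP, 50.3% in Ly6C-GMP and 53.6% in CMP cells. Within runs the median ratio was -0.68 in run A and -0.49 in run C for Ly6C+GMP cells, -0.03 in run B and 0.06 in run H for Ly6C-GMP cells, and 0.31 in run B and 0.09 in run H for CMP cells.

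**Figure D2:**
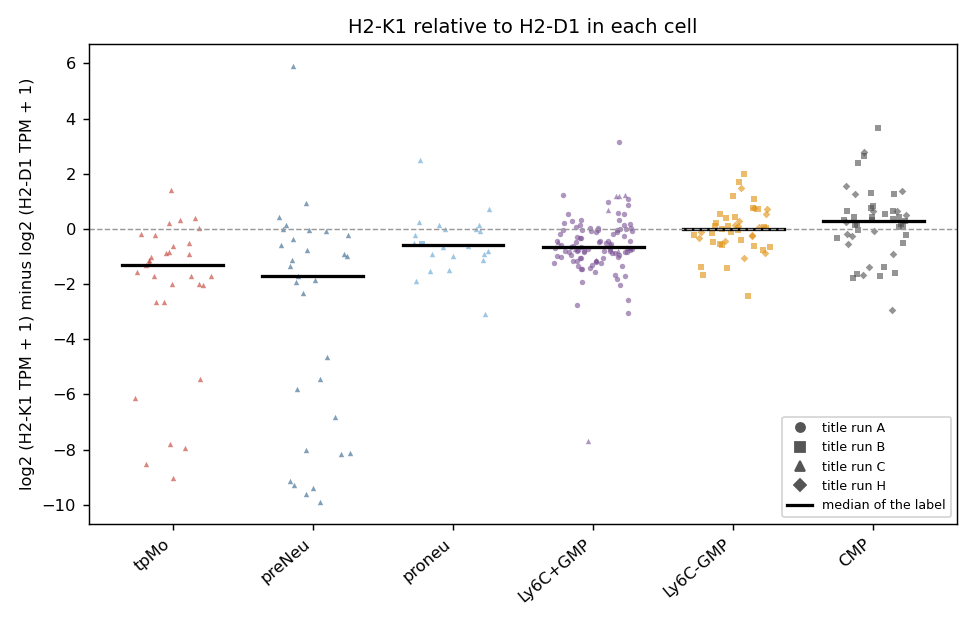
Difference of log2(TPM + 1) between H2-K1 and H2-D1 in each cell by label, with marker shape for the title run, a bar at the median and a dashed line at equal levels. The median is -1.72 in preNeu and 0.29 in CMP cells, and a lower group of tpMo and preNeu cells has H2-K1 far below H2-D1.

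H2-T23, Tap1 and Tapbp were found in part of the cells of each label. H2-T23 was detected in 24 of 31 tpMo (77.4%), 15 of 31 preNeu (48.4%), 12 of 22 proneu (54.5%), 80 Ly6C+GMP (76.2%), 28 of 45 Ly6C-GMP (62.2%) and 42 of 47 CMP cells (89.4%). Its median and highest levels were 169 and 1228 TPM in tpMo, 0 and 1138 TPM in preNeu, 1.65 and 371 TPM among proneu, 25.8 and 521 TPM among Ly6C+GMP, 98.9 and 1019 TPM among Ly6C-GMP, and 353 and 1947 TPM among CMP cells. Every label held cells at 0, so the ranges overlapped, and the median was highest in CMP cells. Runs of 1 label differed, as H2-T23 was detected in 76 of 95 Ly6C+GMP cells of run A and in 4 of 10 of run C.

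Tap1 was detected in 10 of 31 tpMo (32.3%), 6 of 31 preNeu (19.4%), 8 of 22 proneu (36.4%), 65 Ly6C+GMP (61.9%), 30 of 45 Ly6C-GMP (66.7%) and 34 of 47 CMP cells (72.3%). It averaged 65.1 ± 119 TPM in tpMo, 36.96 ± 92.1 TPM in preNeu, 44.96 ± 69.2 TPM in proneu, 69.7 ± 86.8 TPM in Ly6C+GMP, 70.3 ± 75.6 TPM among Ly6C-GMP, and 218 ± 321 TPM among CMP cells. The exact 95% interval of the share was 16.7 to 51.4% in tpMo and 57.4 to 84.4% in CMP cells, where intervals of this kind cover counting error only. Tapbp was the most evenly found of the 3, in 28 of 31 tpMo (90.3%), 19 of 31 preNeu (61.3%), 21 of 22 proneu (95.5%), all but 1 of the Ly6C+GMP (99.05%), 44 of 45 Ly6C-GMP (97.8%) and 36 of 47 CMP cells (76.6%). Its median was 182 TPM in tpMo, 3.65 TPM in preNeu, 172 TPM in proneu, 169 TPM in Ly6C+GMP, 109 TPM among Ly6C-GMP and 49.8 TPM among CMP cells. CMP cells had both cells without Tapbp and the highest single value, 2108 TPM.

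For each of the 10 genes the labels were put in order of mean log2(TPM + 1). CMP was the highest label for 8 of the genes, Ly6C+GMP for Tapbp and Ly6C-GMP for H2-Eb1. On this scale, without rescaling, preNeu cells had the lowest mean for all 6 class I genes. None of the 50 gaps between neighbouring labels exceeded the larger SD of the 2 labels. In mean TPM, H2-T23 was higher in preNeu (105.3 TPM) than in proneu (60.03 TPM) and Ly6C+GMP cells (91.7 TPM). With scaling to the median ratio over 649 widely detected genes, B2m (0.85) and H2-T23 (0.24) were higher in preNeu than in proneu cells. H2-K1, H2-D1, Tap1 and Tapbp stayed lower in preNeu than in proneu cells under that scaling.

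Class II transcripts were rare. Any of the 4 class II genes was detected in 3 of 31 tpMo (9.68%, 95% interval 2.04 to 25.8%), 0 of 31 preNeu (upper limit 11.2%), 2 of 22 proneu (9.09%, 1.12 to 29.2%), 21 Ly6C+GMP (20%, 12.8 to 28.9%), 13 of 45 Ly6C-GMP (28.9%, 16.4 to 44.3%) and 16 of 47 CMP cells (34.04%, 20.9 to 49.3%). These intervals cover counting error only and are no test between labels. The preNeu cells also had the fewest detected genes, with a median of 2373. Of the 55 cells with any class II gene, 52 had 1, 2 had 2, 1 had 3 and 0 had all 4.

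H2-Ab1, the I-A beta chain, accounted for most of these cells. It was detected in 1 of 31 tpMo, 0 of 31 preNeu, 2 of 22 proneu, 16 Ly6C+GMP (15.2%), 8 of 45 Ly6C-GMP and 11 of 47 CMP cells. Where detected, its lowest, median and highest levels were 1.47, 119 and 185 TPM among Ly6C+GMP, 1.35, 115 and 393 TPM among Ly6C-GMP, and 9.6, 598 and 899 TPM among CMP cells. Its single tpMo cell had 2.64 TPM, and its pair of proneu cells had 50.1 and 148 TPM. H2-Aa encodes the I-A alpha chain, without which that beta chain has no partner. It was detected in 1 Ly6C-GMP cell at 2.79 TPM and in 2 CMP cells at 3.6 and 607 TPM. All came from run H, with 1 of 15 Ly6C-GMP and 2 of 16 CMP cells. In run B it was found in 0 of 30 and 0 of 31. Of the 38 cells with H2-Ab1, 1 also had H2-Aa. That CMP cell of run H held 607 TPM of H2-Aa, 598 TPM of H2-Ab1 and 142 TPM of Cd74.

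Cd74, the invariant chain gene, lies on chromosome 18 from 60803848 to 60812652 (plus). It was detected in 2 of 31 tpMo, 0 of 31 preNeu, 0 of 22 proneu, 5 Ly6C+GMP (4.76%), 2 of 45 Ly6C-GMP and 5 of 47 CMP cells. Its highest level was 176 TPM in tpMo, 88.6 TPM in Ly6C+GMP, 228 TPM among Ly6C-GMP, and 353 TPM among CMP cells. Cd74 and H2-Ab1 were found together in 1 cell, the CMP cell with both I-A chains. H2-Eb1 did not pass 2 TPM in any cell and was detected in 3 Ly6C-GMP and 1 CMP cells. These too were all of run H (3 of 15 and 1 of 16), with 0 of 30 and 0 of 31 in run B. Ciita, the transactivator required for class II transcription, was detected in 1 cell, a Ly6C+GMP cell, and no cell with a class II gene had it. Among markers of cells known for class II, the dendritic cell genes Itgax, Xcr1 and Cd209a, the plasmacytoid gene Siglech and the B cell genes Ms4a1, Pax5 and Ebf1 reached 1 TPM in no cell. The B cell gene Cd79b was detected in all 6 labels, with Cd79a in CMP cells alone. The summed level of 6 B cell genes had a median of at most 1.75 TPM in any label. Its highest value was 411 TPM in tpMo, 1.73 TPM in preNeu and 914 TPM in proneu cells. It was 678 TPM among Ly6C+GMP, 1109 TPM among Ly6C-GMP and 1267 TPM among CMP cells. Of 8 dendritic cell genes, 3 were detected in tpMo, 1 in preNeu, 1 in proneu, 3 in Ly6C+GMP, 3 in Ly6C-GMP and 3 in CMP cells. Their summed level had a median of at most 0.57 TPM in any label, and its highest value was 181 TPM in tpMo, 130 TPM in preNeu, 211 TPM in proneu, 133 TPM in Ly6C+GMP, 247 TPM among Ly6C-GMP and 466 TPM among CMP cells. Of 7 plasmacytoid dendritic cell genes 2 or 3 were detected in each label, and their summed level had a highest median of 17.8 TPM, in Ly6C-GMP cells, and a highest value of 798 TPM, in a CMP cell. Of 6 macrophage genes, 1 was detected in tpMo, 2 in preNeu, 1 in proneu, 6 in Ly6C+GMP, 5 in Ly6C-GMP and 2 in CMP cells. Their summed level reached 149 TPM in tpMo, 287 TPM in preNeu, 880.1 TPM in proneu, 524 TPM among Ly6C+GMP, 1128 TPM among Ly6C-GMP and 400.4 TPM among CMP cells. The part of such cells in the class II values was not tested.

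Some genes that load class II molecules were found in more cells than the class II chains, H2-DMa in every label and Ctss and Ifi30 most clearly in tpMo cells. H2-DMa, which encodes a chain of the peptide exchanger H2-DM, was detected in 29 of 31 tpMo, 9 of 31 preNeu, 10 of 22 proneu, 86 Ly6C+GMP (81.9%), 34 of 45 Ly6C-GMP and 44 of 47 CMP cells. Ctss, which encodes the invariant chain protease cathepsin S, averaged 1186 ± 1014 TPM in tpMo, 0.416 ± 0.844 TPM in preNeu, 0.479 ± 1.38 TPM in proneu, 79.8 ± 161 TPM in Ly6C+GMP, 36.3 ± 118 TPM among Ly6C-GMP and 54.8 ± 143 TPM in CMP cells. Ifi30, which encodes a thiol reductase of the endocytic route, was detected in 29 of 31 tpMo, 6 of 31 preNeu, 3 of 22 proneu, 30 Ly6C+GMP (28.6%), 3 of 45 Ly6C-GMP and 3 of 47 CMP cells. H2-DMa, Ctss and Ifi30 were found together in 26 of 31 tpMo cells, and 25 of these had none of H2-Aa, H2-Ab1 and H2-Eb1. H2-Ob, which encodes a chain of the H2-DM inhibitor H2-O, was detected in 0 of 31 tpMo, 0 of 31 preNeu, 1 of 22 proneu, 12 Ly6C+GMP (11.4%), 5 of 45 Ly6C-GMP and 19 of 47 CMP cells.

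**Figure D3:**
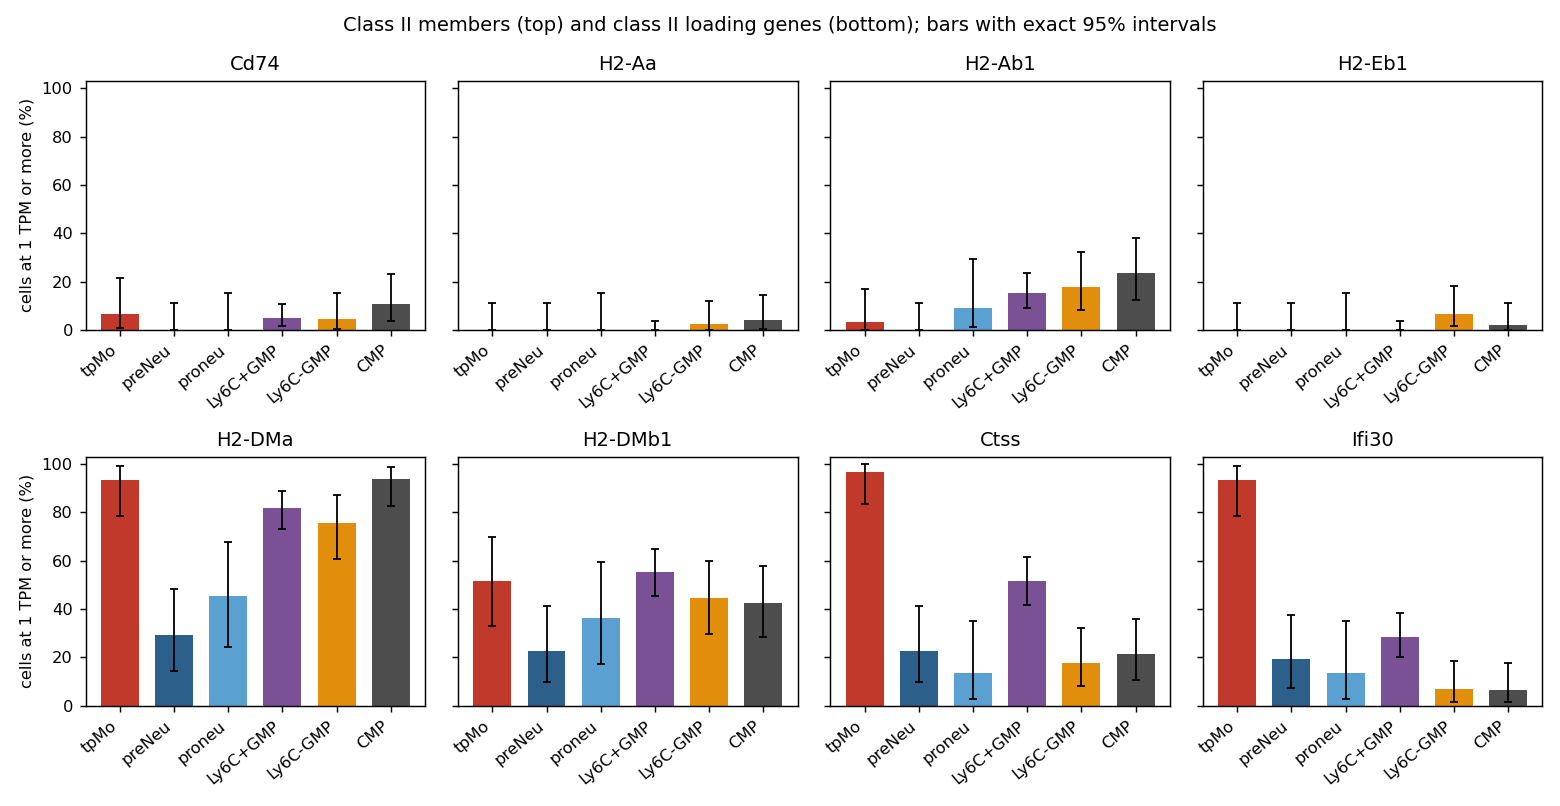
Share of cells at 1 TPM or more for the 4 class II members (top row) and 4 class II loading genes (bottom row) by label, with exact 95% binomial intervals that cover counting error only. No class II member passes 25% in any label, while H2-DMa reaches 93.5% in tpMo and 93.6% in CMP cells.

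The labels were then compared in 6 pairs. A gene was measured where its mean reached 1 TPM in either label, and called higher or lower from a difference of 1 in mean log2(TPM + 1). The pairs share labels, so their values are not independent of each other. All differences below are on this scale unless a ratio of means is named. The scale understates the difference of low genes. For genes missed in part of the cells it can also give a larger difference than the log2 ratio of means. H2-K1 between preNeu and proneu cells had -3.94 against -1.46, and H2-T23 between Ly6C-GMP and CMP cells -2.81 against -1.39.

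Between Ly6C-GMP and CMP cells, which differ in the gate by CD16/32, H2-T23 stood out among the members. Its mean was 192 ± 272 TPM for Ly6C-GMP against 507 ± 500.5 TPM for CMP cells, a difference of -2.81. That was the 3rd lowest among 12582 measured genes. Of 9 measured members, 2 were lower, H2-T23 and Tap1 (-1.03), and 1 was higher, Tapbp (1.68). The background was 15.6% higher and 1.29% lower at an all-gene median of 0.19. Tapbp was higher on this scale but not in its mean, which was 167 ± 159 TPM among Ly6C-GMP, and 224 ± 385 TPM among CMP cells, and the log2 ratio of means was -0.42. The other members lay within 1, at -0.51 for H2-K1, -0.23 for B2m, -0.28 for H2-D1, -0.86 for H2-Ab1, -0.33 for Cd74 and -0.20 for H2-Aa. As log2 ratios of means the class II genes lay past 1, at -2.24 for H2-Ab1, -1.01 for Cd74 and -3.72 for H2-Aa, the last resting on 1 CMP cell. Within runs B and H the differences were -2.61 and -3.23 for H2-T23, -1.01 and -1.06 for Tap1, and 2.01 and 1.03 for Tapbp. H2-Ab1 differed by -0.65 in run B and -1.27 in run H. Without the highest cell of each label Tap1 differed by -0.99.

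Other antigen presentation genes went different ways between Ly6C-GMP and CMP cells. Of the 11 genes of class I peptide supply and loading, 4 were higher and 1 lower, led by the chaperone gene Calr (3.04) and the disulfide isomerase gene Pdia3 (2.33) of the loading complex. The list's median was 0.59. Of 9 measured class II loading genes 0 were higher and 2 lower, H2-Ob (-2.46) and H2-DMa (-2.09). Mean H2-DMa was 181 ± 253 TPM for Ly6C-GMP against 458 ± 462 TPM for CMP cells. Among 13 measured further class I chains, 1 was higher, H2-T24 (1.23), and 1 lower, the lipid-presenting Cd1d1 (-1.24).

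Between Ly6C+GMP and Ly6C-GMP cells none of 8 measured members was called in either direction, where 9.87% of all 12399 genes were higher and 1.35% lower. Mean B2m was 1909 ± 590 TPM for Ly6C+GMP against 2898 ± 1063 TPM for Ly6C-GMP cells (-0.59). Mean H2-K1 was 976 ± 429 TPM for Ly6C+GMP against 1484 ± 756 TPM for Ly6C-GMP cells (-0.62). H2-D1 differed by -0.05, nearer to 0 than H2-K1. Run and label cannot be told apart here, as the 2 labels never shared a run. With Ly6C+GMP cells of run C alone, H2-T23 differed by -2.51 and H2-K1 by -1.08. Those of run A gave -0.06 and -0.57. Among class II loading genes 2 of 10 were higher in Ly6C+GMP cells, Ctss (1.58) and Ifi30 (1.05). With Ly6C+GMP cells of run C alone, 0 of 8 such genes were higher and 1 was lower (all 11868 genes: 1977 higher and 788 lower). Those of run A gave 2 of 10 higher and 0 lower (all 12415 genes: 1250 higher and 174 lower). Irf8, which encodes a factor needed for monocyte and dendritic cell formation, was higher by 3.24 over all cells. The monocyte marker genes had a median difference of 2.03 with Ly6C+GMP cells of run A (5 of 7 higher, 0 lower). With those of run C it was 0.01 (1 of 6 measured higher, 1 lower). The 10 Ly6C+GMP cells used within run C below thus differed in these genes from the 95 of run A.

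Between proneu and Ly6C+GMP cells, which shared a gate except for 1 proneu cell with none given, the classical class I genes lay close together. B2m differed by -0.14, H2-K1 by -0.42, H2-D1 by -0.49 and Tapbp by -0.12. Of 8 measured members 0 were higher and 2 lower, H2-T23 (-1.34) and Tap1 (-1.31), where 2.2% of all genes were higher and 15.9% lower. Mean Tap1 was 44.96 ± 69.2 TPM for proneu against 69.7 ± 86.8 TPM for Ly6C+GMP cells, and its difference was -1.82 within run C. H2-T23 was higher in proneu cells within run C (1.01), with 62.9 ± 100.9 TPM for proneu against 20.99 ± 36.2 TPM for Ly6C+GMP cells there. In run C 5.49% of all genes were higher and 21.2% lower. Class II loading genes were lower in 3 of 10 cases, H2-DMa (-3.34), Ctss (-2.29) and H2-DMb1 (-1.14). None of 8 was called within run C. Of 11 class I supply genes 6 were lower, with the immunoproteasome subunit genes Psmb10 (-2.60), Psmb8 (-1.75) and Psmb9 (-1.29) in the lead. Within run C 4 were lower.

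Between preNeu and proneu cells H2-K1 and Tapbp were far lower in mean log2(TPM + 1), and B2m was not called. Mean H2-K1 was 339 ± 447 TPM for preNeu against 935 ± 468 TPM for proneu cells (-3.94). Mean Tapbp was 82.04 ± 123 TPM for preNeu against 167 ± 110 TPM for proneu cells (-3.20). Mean B2m was 1759.9 ± 904 TPM for preNeu against 1842 ± 902 TPM for proneu cells (-0.11). Of 7 measured members 0 were higher and 4 lower, the others being H2-D1 (-1.20) and Tap1 (-1.10). The background was 3.58% higher and 39.8% lower at an all-gene median of -0.68. H2-T23 differed by -0.17 with a mean of 105.3 ± 236 TPM in preNeu and 60.03 ± 99.4 TPM in proneu cells. Within run C the values were -3.86 for H2-K1 and -3.15 for Tapbp. As log2 ratios of means over all cells, H2-K1 (-1.46) and Tapbp (-1.01) lay past 1. So did H2-Ab1 (-3.33), which was detected in 2 of 22 proneu cells. H2-D1 (-0.64) and Tap1 (-0.28) were not lower by 1 as such ratios, and H2-T23 was 0.80.

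The preNeu cells also had the fewest detected genes, and their 20 leading genes took the largest share of TPM. Scaling to the median ratio over 649 widely detected genes brought the median of all genes to -0.52. H2-K1 then differed by -3.18, Tapbp by -2.49, H2-D1 by -0.28 and Tap1 by -0.84. B2m (0.85) and H2-T23 (0.24) changed sign under that scaling, and B2m also without mitochondrial and leading genes (0.22). With cells of at least 2000 detected genes, which left out 7 preNeu cells, H2-K1 differed by -3.32 and Tapbp by -3.18. The part of depth and of the leading genes in the result was not tested beyond these values. The 11 class I supply genes were all lower in preNeu cells, with a median of -3.49. Mean Calr was 28.6 ± 135 TPM for preNeu against 515 ± 357 TPM for proneu cells (-6.78), Pdia3 differed by -4.20 and Psmb8 by -4.08.

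Between tpMo and Ly6C+GMP cells the class I members split in mean log2(TPM + 1). The median number of detected genes was 3082 in tpMo and 4829 in Ly6C+GMP cells. H2-T23 was higher, at 248 ± 298 TPM in tpMo and 91.7 ± 120 TPM in Ly6C+GMP cells (1.24, and 3.46 within run C). H2-K1 was lower, at 828 ± 695 TPM in tpMo and 976 ± 429 TPM in Ly6C+GMP cells (-1.35, and -0.89 within run C). Tap1 was lower too (-1.54, and -2.14 within run C), with a mean of 65.1 ± 119 TPM in tpMo and 69.7 ± 86.8 TPM in Ly6C+GMP cells. Of 8 measured members 1 was thus higher and 2 lower, where the background was 3.19% higher and 32.9% lower with an all-gene median of -0.50. Within run C, 1 was higher and 1 lower, against a background of 5.89% and 36.9%. B2m (0.23), H2-D1 (0.29) and Tapbp (-0.07) lay close to 0, and Tapbp was 0.55 as a log2 ratio of means. As such ratios H2-K1 (-0.24) and Tap1 (-0.10) were not lower by 1, and H2-T23 was 1.42. Of 10 measured class II loading genes 5 were higher and 0 lower, with Ifi30 (7.74), Ctss (6.60) and H2-DMa (2.39) in the lead, and 6 of 8 were higher within run C. No class II member was called, at 0.27 for Cd74 and -0.76 for H2-Ab1. As log2 ratios of means both lay past 1, at 1.88 for Cd74, which was detected in 2 tpMo cells, and -3.82 for H2-Ab1, detected in 1. Of 11 class I supply genes 9 were lower and 0 higher, led by Calr (-6.13), Tap2 (-2.66), which encodes the other transporter subunit, and Erap1 (-2.52), a peptide-trimming enzyme gene.

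Between tpMo and preNeu cells, all from run C, 4 of 7 measured members were higher and 0 lower. Mean Tapbp was 244 ± 213 TPM for tpMo against 82.04 ± 123 TPM for preNeu cells (3.25). H2-K1 differed by 3.01, H2-T23 by 2.75 and H2-D1 by 1.98. Mean H2-D1 was 1893 ± 1216 TPM for tpMo against 820.3 ± 594 TPM for preNeu cells. The background was 26.3% higher and 4.53% lower, and the all-gene median of 0.36 became 0.25 under median-ratio scaling. The 4 members stayed past 1 under that scaling, with Tapbp at 2.62 and H2-D1 at 1.15. B2m (0.48), Tap1 (0.87) and Cd74 (0.47) were not called, and B2m had the other sign under that scaling (-0.39). Of 11 class I supply genes 8 were higher, led by Psmb8 (5.29), and of 8 class II loading genes 6 were higher, led by Ctss (8.84).

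**Figure D4:**
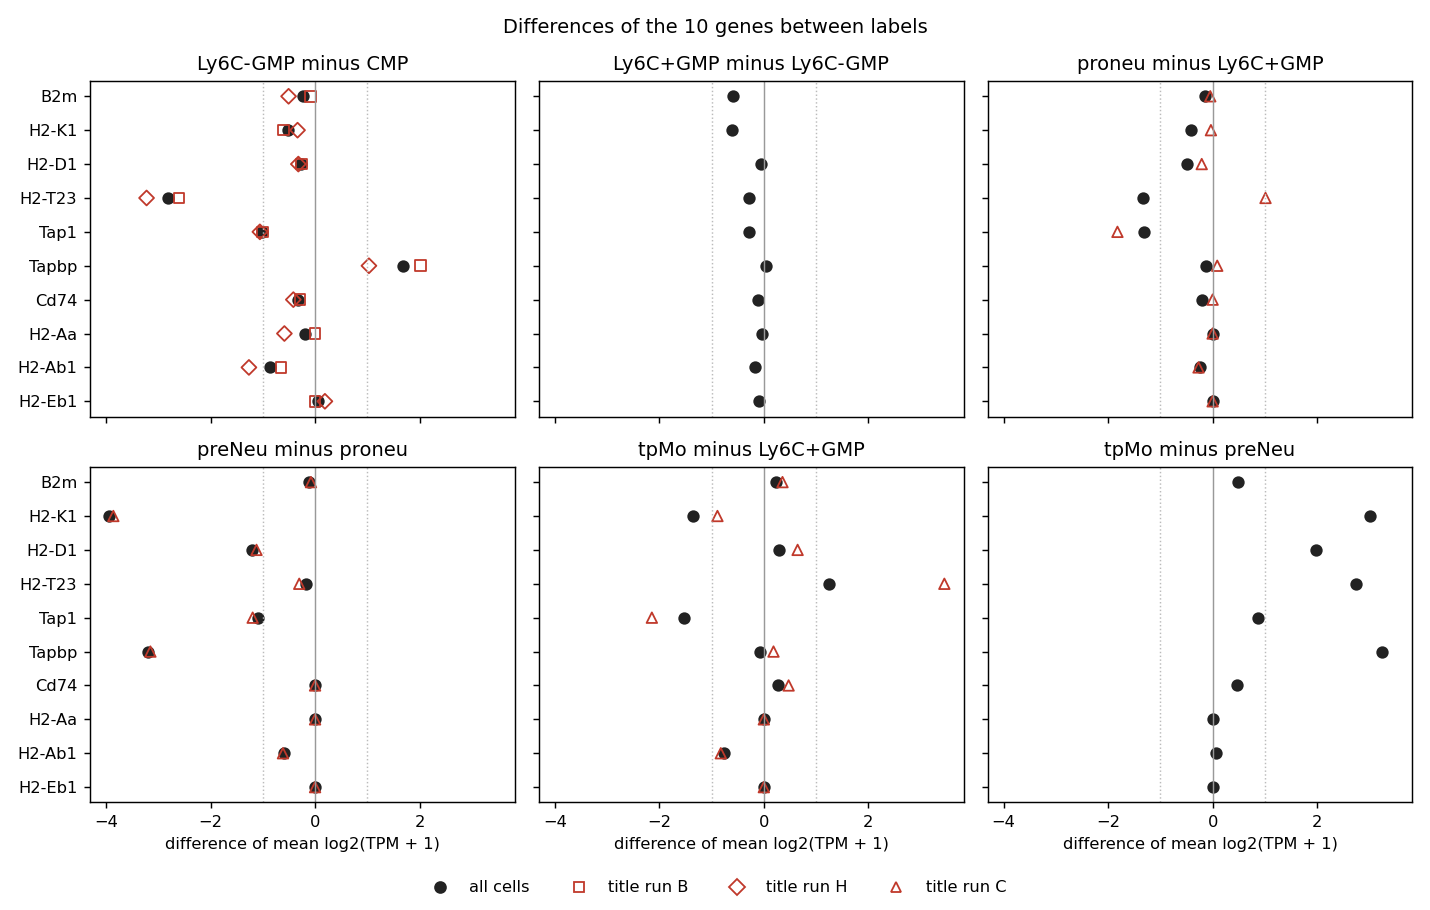
Difference of mean log2(TPM + 1), first label minus second, of each of the 10 genes in the 6 pairs, for all cells (filled) and within single title runs (open), with dotted lines at -1 and 1. H2-T23 lies at -2.81 for Ly6C-GMP minus CMP and turns to 1.01 in run C for proneu minus Ly6C+GMP, while H2-K1 and Tapbp lie lowest for preNeu minus proneu.

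**Figure D5:**
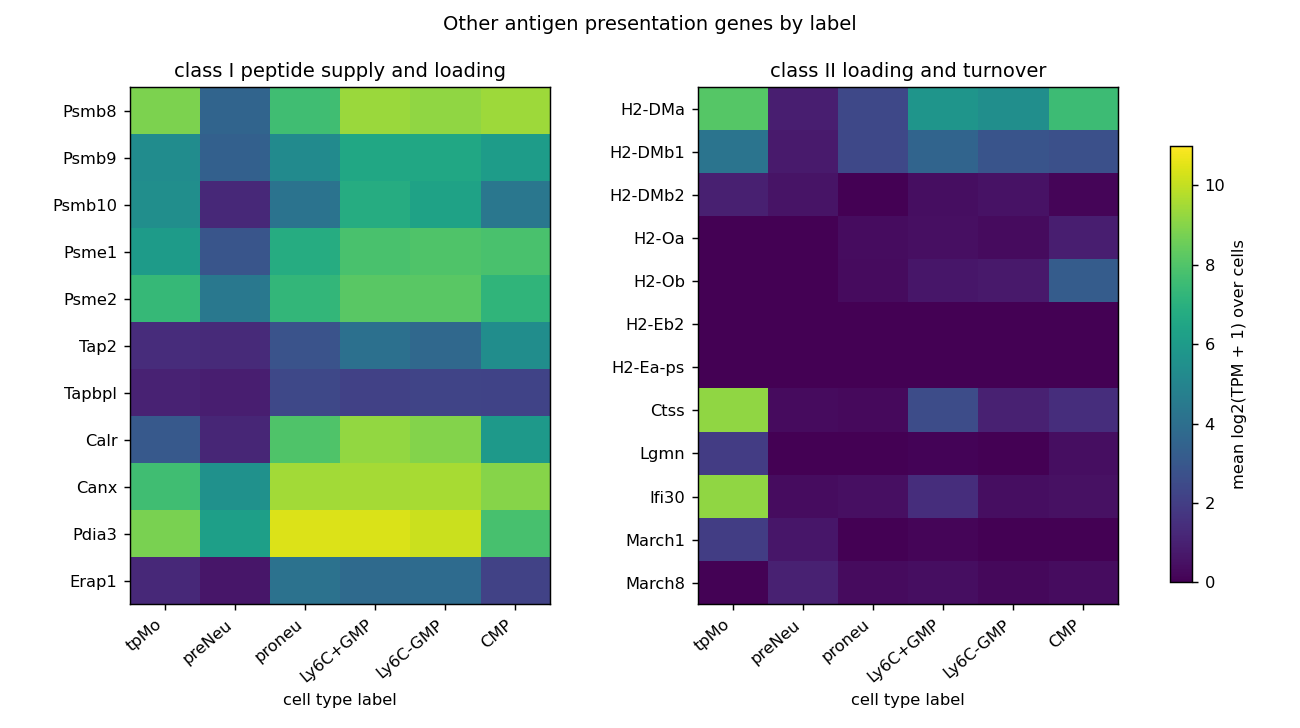
Mean log2(TPM + 1) over cells of the class I peptide supply and loading genes (left) and the class II loading and turnover genes (right) in each label, as colour. The class I supply genes are lowest in preNeu cells, and Ctss, Ifi30 and H2-DMa are highest in tpMo cells.

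Members varied largely apart from each other from cell to cell. With each cell's log2(TPM + 1) taken relative to its label and run, over 280 cells, the 15 pairs of class I genes had a median Pearson r of 0.09. The highest was 0.37, for H2-K1 with H2-D1. The 6 class II pairs reached 0.27, for Cd74 with H2-Aa, which rests on few cells. The 24 pairs across the classes lay between -0.15 and 0.17. Of 6836 genes detected in at least 20% of cells, those most like H2-K1 were the ribosomal protein genes Rpl32 (0.35), Rpl3 (0.35), Rpl10a (0.33) and Rps2 (0.31) and the cyclin-dependent kinase gene Cdk6 (0.30). For B2m they were mt-Atp6 (0.25), Abcg1 (0.25), Hsd3b2 (0.24), Ces2b (0.22) and Kdm5b (0.21), and for Cd74 none passed 0.22. These cells share library runs, depth and a fixed TPM total, and coefficients of this size in sparse values are given as a description. Within labels, H2-K1 ran with the number of detected genes at r = 0.60 in proneu, -0.40 in Ly6C-GMP and -0.42 in CMP cells.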

How the data were processed

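Per the submitters' processing notes, the authors used RSEM 1.2.19 and GRCm38. The deposited table gives TPM per gene symbol and cell, in which the authors divided by transcript length and scaled each cell to a fixed total. The aligner, the annotation and any cell filter were not given in the sources used here. No count was used, so read depth is unknown, and column totals ran from 998703 to 1000000. Cells were grouped by their cell type label. From the table were computed means, SDs over cells, shares at 1 TPM or more with exact Clopper-Pearson 95% intervals (SciPy 1.17.1), and differences of mean log2(TPM + 1) in 6 pairs of labels. A difference was called from 1 log2 unit, over genes averaging 1 TPM or more in 1 of both labels. Named pathway genes had the largest called differences, up to 3 a list, with an average of 20 TPM or more in 1 of both labels. The differences were checked by multiplying genes of high level in every cell by known folds in part of the Ly6C+GMP cells. That check does not cover sparse genes. The members and lists were chosen with earlier results of these data known. Of 141 list symbols, 3 were not matched in the table. Promoters came from RefSeq and gene bounds from GENCODE. Alternatives were other pseudocounts, scalings, filters, title runs and leaving out the highest cell.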

Additional observations from a re-analysis of the deposited data

How the results depend on the processing

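Over the alternatives run, 401 member differences kept their sign and their side of 1 log2 unit, and 20 uncalled ones changed sign but stayed under it. A further 21 no longer reached 1 log2 unit, 16 newly reached it, and 3 differences changed sign with a value past 1 before or after. These were Tapbp between Ly6C-GMP and CMP cells as a ratio of means (-0.42), and H2-T23 between proneu and Ly6C+GMP cells in run C (1.01) and with Ly6C+GMP cells of run C alone (0.88). That last setting, its run A counterpart and the minimum of 2000 detected genes were chosen after seeing the data. With a pseudocount of 10 TPM, 0 members were higher and 1 lower for Ly6C-GMP against CMP, 0 were lower for proneu against Ly6C+GMP, and 0 were higher and 1 lower for tpMo against Ly6C+GMP. As ratios of means, 0 were higher and 5 lower for Ly6C-GMP against CMP, 2 lower for Ly6C+GMP against Ly6C-GMP, 1 lower for proneu against Ly6C+GMP, and 2 higher and 1 lower for tpMo against Ly6C+GMP. The share of all genes called was not computed for the pseudocount, the ratios of means or the setting without the highest cells. For Ly6C-GMP against CMP, 1 was lower after renormalising without mitochondrial and leading genes (1.30% of all genes) and 1 without the highest cells. Within run C, 1 was higher and 1 lower for proneu against Ly6C+GMP (all genes 5.49% and 21.2%). For tpMo against Ly6C+GMP 1 was lower there (36.9%). With Ly6C+GMP cells of run C alone, 2 were lower against Ly6C-GMP, where 788 of 11868 genes were. In that setting 1 was lower for proneu (2339 of 11058 genes) and 1 for tpMo (4104 of 11107 genes). Median-ratio scaling left 2 lower for preNeu against proneu (34.1% of all genes). The cause was not tested, except that a ratio of means gives high cells more weight and a pseudocount of 10 TPM shrinks low genes by construction. No paired analysis was possible because each label is 1 sample and the replicate numbers only name cells. Without counts, a value of 0 cannot be told from a transcript that was missed.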

Other observations

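Genes that control MHC transcription are given here with the share of all measured genes called the same way. Among 17 measured regulators, 3 were higher (all genes 15.6%) and 0 lower (1.29%) for Ly6C-GMP against CMP cells, among them the interferon gamma receptor genes Ifngr2 (1.77) and Ifngr1 (1.58). For Ly6C+GMP against Ly6C-GMP cells 2 were higher (9.87%) and 1 lower (1.35%). For proneu against Ly6C+GMP cells 0 were higher (2.2%) and 6 lower (15.9%), led by Irf8 (-5.67). Irf8 averaged 339 ± 289 TPM in tpMo, 1.25 ± 2.60 TPM in preNeu, 1.08 ± 1.98 TPM in proneu, 368 ± 361 TPM in Ly6C+GMP, 87.6 ± 156 TPM among Ly6C-GMP and 151 ± 277 TPM among CMP cells. Of 16 measured for preNeu against proneu cells, 2 were higher (3.58%) and 4 lower (39.8%), with Ifngr1 at -5.64. Of 17, 0 were higher (3.19%) and 2 lower (32.9%) for tpMo against Ly6C+GMP cells, and 5 higher (26.3%) and 1 lower (4.53%) for tpMo against preNeu cells. Nlrc5, the class I transactivator gene, was detected in 4 tpMo, 1 preNeu, 3 proneu, 18 Ly6C+GMP, 10 Ly6C-GMP and 7 CMP cells.

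Of 13 measured interferon response genes, 2 were higher and 0 lower for Ly6C-GMP against CMP cells (all genes 15.6% and 1.29%), and 2 higher and 0 lower for Ly6C+GMP against Ly6C-GMP cells (9.87% and 1.35%). For proneu against Ly6C+GMP cells 0 of 13 were higher and 4 lower (2.2% and 15.9%), and within run C 0 of 7 were higher and 5 lower (5.49% and 21.2%). The guanylate-binding protein gene Gbp3 was among the called genes, at 1.41 for Ly6C+GMP against Ly6C-GMP cells and -2.28 for proneu against Ly6C+GMP cells. For preNeu against proneu cells 0 of 8 were higher and 3 lower (3.58% and 39.8%). For tpMo against Ly6C+GMP cells 1 of 14 was higher, Irf7 (1.29), which encodes an interferon-inducing factor, and 4 were lower (3.19% and 32.9%). For tpMo against preNeu cells 4 of 12 were higher and 0 lower (26.3% and 4.53%). Of the costimulatory ligand genes, Cd86 alone was called, for tpMo against Ly6C+GMP cells (1.44) and against preNeu cells (1.60). It was detected in 7 of 31 tpMo, 0 of 31 preNeu, 0 of 22 proneu, 3 Ly6C+GMP, 1 Ly6C-GMP and 1 CMP cells.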
